A study of Mus musculus with 3 samples.

Results

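The keratin-associated protein genes were taken as every gene whose symbol starts with Krtap, which gave 57 of the 31053 genes listed in the count matrices. The material was skin of C57BL/6 mice aged 7 weeks, profiled as droplet single-cell libraries in a study of hair growth. The labels name 1 library for each of 3 agents, control, metformin and Shi-Bi-Man, and give no dose, route, body site, hair cycle stage or number of mice. Counts were analysed for the libraries labelled control (12108 barcodes and 71345558 unique molecular identifiers, UMIs) and metformin (12092 barcodes and 92341365 UMIs), and expression in the Shi-Bi-Man library was not analysed here. With 1 library per agent there was no replicate and therefore no test, and the agent cannot be told apart from the mouse, the piece of skin or the preparation.

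Keratin-associated proteins are small proteins that fill the space between the keratin filaments of the hair shaft and bind them to each other, largely through disulfide bonds. They are sorted by composition into high sulfur, ultra-high sulfur and high glycine-tyrosine proteins, and their genes lie in clusters on a few chromosomes. In a growing hair they are made late, in the cortex, cuticle and medulla above the proliferating matrix, after the regulators Lef1, Msx2, Hoxc13 and Foxn1 and the hair keratins have come on. The resting follicle, the outer root sheath and the epidermis between follicles are not known for making them.

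The 250 bases upstream of 5 members are shown, whose levels by cell type follow. Krtap17-1, Krtap3-3 and Krtap3-2 lead the signal of the gene cluster on chromosome 11, and Krtap8-1 leads that on chromosome 16. Krtap11-1, also on chromosome 16, had fewer metformin UMIs (61) than Krtap7-1 (89) and Krtap15 (83), which are not shown. The sequences are from RefSeq on build GRCm38.p6 and are written 5' to 3' on the strand of the gene, all of which is the minus strand. They span chr16:89487953-89488202 for Krtap8-1, chr16:89571184-89571433 for Krtap11-1, chr11:99550864-99551113 for Krtap3-3, chr11:99556854-99557103 for Krtap3-2 and chr11:99993995-99994244 for Krtap17-1. Capitals mark TATAAA, and CTTTGA or CTTTGT, on either strand.
Krtap8-1: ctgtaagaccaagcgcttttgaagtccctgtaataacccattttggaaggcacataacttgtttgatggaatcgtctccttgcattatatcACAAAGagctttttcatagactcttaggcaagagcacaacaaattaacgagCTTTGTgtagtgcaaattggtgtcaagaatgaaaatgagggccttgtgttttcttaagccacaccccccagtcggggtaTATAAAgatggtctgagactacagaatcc
Krtap11-1: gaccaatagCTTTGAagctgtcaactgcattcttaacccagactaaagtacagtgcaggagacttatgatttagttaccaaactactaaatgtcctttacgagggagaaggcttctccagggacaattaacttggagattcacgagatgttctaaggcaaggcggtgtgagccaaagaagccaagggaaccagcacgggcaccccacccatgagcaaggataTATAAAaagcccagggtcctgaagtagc
Krtap3-3: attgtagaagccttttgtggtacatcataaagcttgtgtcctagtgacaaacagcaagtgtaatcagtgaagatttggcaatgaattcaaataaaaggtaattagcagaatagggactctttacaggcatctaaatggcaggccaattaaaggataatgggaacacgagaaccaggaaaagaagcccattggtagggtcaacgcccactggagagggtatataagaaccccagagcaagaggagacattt
Krtap3-2: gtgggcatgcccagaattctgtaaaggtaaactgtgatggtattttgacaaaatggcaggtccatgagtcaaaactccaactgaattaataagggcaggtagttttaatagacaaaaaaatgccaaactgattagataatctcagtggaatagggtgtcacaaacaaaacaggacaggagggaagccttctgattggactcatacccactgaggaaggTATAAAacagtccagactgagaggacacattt
Krtap17-1: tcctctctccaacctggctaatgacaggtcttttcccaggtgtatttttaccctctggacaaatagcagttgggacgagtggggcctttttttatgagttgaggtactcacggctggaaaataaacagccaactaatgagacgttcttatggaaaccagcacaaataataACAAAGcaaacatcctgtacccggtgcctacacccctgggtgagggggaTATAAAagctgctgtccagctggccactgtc
Of the 57 members, 51 had a promoter entry, and 41 of these (80.4%) held TATAAA on either strand, beside 12.4% of all 32851 promoters of the same length. TATAAA on the gene's own strand in the last 40 bases was found in 31 of 51 (60.8%), beside 2.31% of all promoters. CTTTGA, a form of the Lef1 recognition core, was found in 12 (23.5%, beside 13.8%) and CTTTGT in 15 (29.4%, beside 16.5%). The Krtap3-3 window held none of these letters, while that of its neighbour Krtap3-2 held TATAAA. These are matches of letters only.

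Keratin-associated protein transcripts were rare in both libraries and differed in kind between them. The control library held 389 Krtap UMIs, which is 5.45 counts per 1000000 UMIs (CPM) with a 95% exact Poisson interval of 4.92 to 6.02, in 117 barcodes. The metformin library held 2060, 22.3 CPM (21.4 to 23.3), in 427 barcodes. A UMI is counted from the 3' end of a transcript once per molecule, so levels are given in CPM and were not divided by gene length. All intervals cover counting error only, and since many UMIs came from few cells the true uncertainty is larger. Of the 57 members, 10 were detected in control and 20 in metformin, 7 of them in both, and 34 had no UMI in either library. With metformin thinned to the total of control, 19 were detected in it. Of the 20 in metformin, 11 had at most 3 UMIs. The share of all genes detected in each library is not given here, so these counts only describe the members. For a member at 0, the count allows up to 0.0421 CPM in control and 0.0325 in metformin (3 counts).

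**Figure D1:**
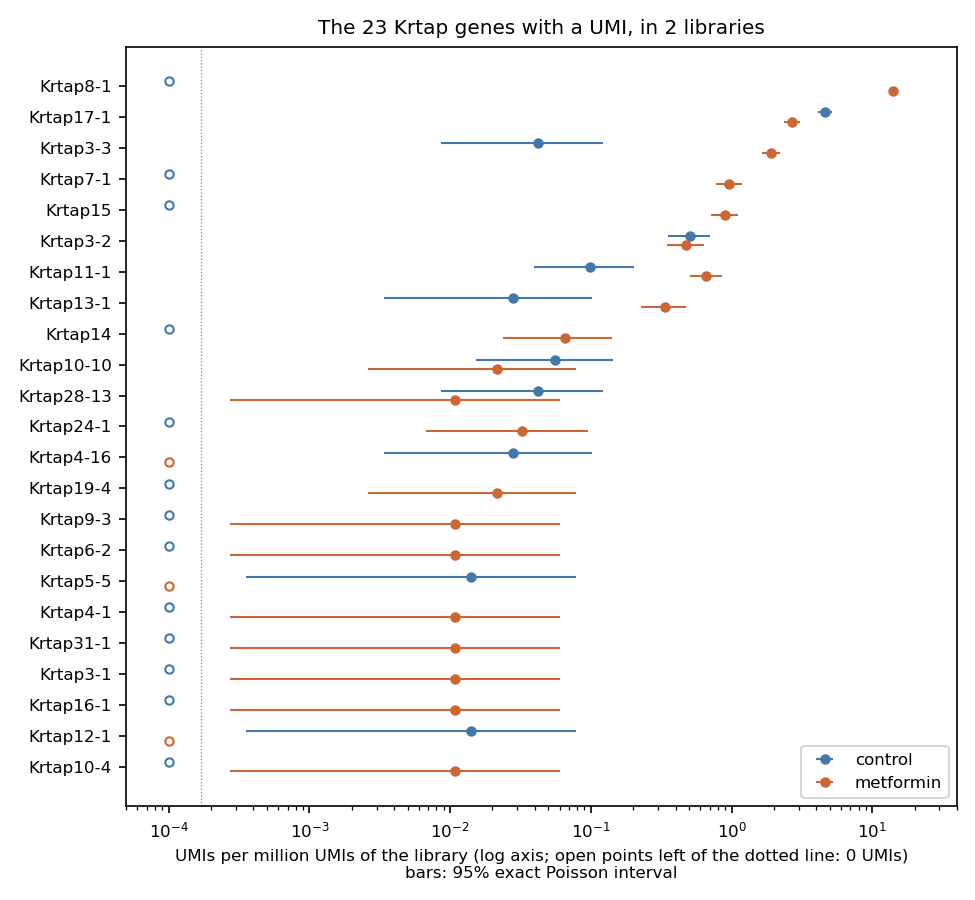
CPM of the library (log axis) for the 23 detected members in the control and metformin libraries, with 95% exact Poisson intervals and open points for 0 UMIs. Krtap8-1 stands highest in metformin at 14.1 CPM and is at 0 in control, whereas Krtap17-1 is at 4.63 in control and 2.70 in metformin.

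Among 27 subfamilies, 19 were detected and 8 were not (Krtap1, Krtap2, Krtap20, Krtap21, Krtap22, Krtap26, Krtap27 and Krtap29). In control, 1 ultra-high sulfur gene made up most of the signal, since Krtap17-1, the sole member of its subfamily, held 84.8% (80.9 to 88.3) of all Krtap UMIs. The Krtap3 subfamily held a further 10.03% (7.23 to 13.5). In metformin, Krtap8, a high glycine-tyrosine subfamily with the sole member Krtap8-1, held 63.4% (61.3 to 65.5). It was followed by Krtap17 with 12.1% (10.7 to 13.6), Krtap3 with 10.7% (9.42 to 12.2), Krtap7 with 4.32% (3.48 to 5.29), Krtap15 with 4.03% (3.22 to 4.97), Krtap11 with 2.96% (2.27 to 3.79) and Krtap13 with 1.505% (1.02 to 2.13). Grouped by composition as textbooks do, a grouping added after the values were seen, the 15 high glycine-tyrosine genes held 0 of 389 UMIs in control and 1398 of 2060 (67.9%) in metformin. The 17 ultra-high sulfur genes held 85.6% and 12.2%, and the 20 high sulfur genes 13.6% and 19.9%. The large subfamilies were nearly silent: Krtap4 with 8 members had 2 UMIs in control and 1 in metformin, Krtap19 with 6 members had 0 and 2, and Krtap5 with 5 members had 1 and 0.

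By position, the gene clusters held different shares of the signal in the libraries. The 23 members on chromosome 11 held 95.4% (92.8 to 97.2) of the Krtap UMIs of control and 23.01% (21.2 to 24.9) of those of metformin. The 24 members on chromosome 16 held 2.31% (1.06 to 4.35) and 76.8% (74.9 to 78.6). In UMIs, chromosome 11 had 371 in control and 474 in metformin, the deeper library, and chromosome 16 had 9 and 1582. The lower share of chromosome 11 in metformin thus came without a fall in its summed UMIs, which are not scaled for depth. Its members did not move alike. Krtap17-1 had 330 of the 371 UMIs of control and 249 of the 474 of metformin, while Krtap3-3 had 3 and 176. On chromosome 16, Krtap8-1 had 1306 of the 1582. The remaining members on chromosomes 1, 7 and 10 had 9 UMIs or fewer in either library.

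Of the 57 members, 8 had at least 20 UMIs in both libraries together, and 6 of these had at least 4-fold more CPM in metformin, beside 1.71% of all 16669 genes with as many UMIs. None was 4-fold lower, beside 0.888% of all genes. With a 2-fold limit the members higher were again 6 (6.97% of all genes) and those lower 0 (6.2%). With a minimum of 50 UMIs, 5 of 7 were 4-fold higher (1.35%) and 0 lower (0.684%). The 6 were Krtap8-1, Krtap3-3, Krtap7-1, Krtap15, Krtap11-1 and Krtap13-1. The median log2 ratio of the 8 was 4 and that of all genes 0.05. A member that was high in either library passed the minimum of 20, and members at 0 were set to 3 counts, so the 8 do not stand for the family. The number of cells that carry hair programmes moved with these ratios, as the next paragraph gives, and its part in them was not tested.

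Cells were clustered without any Krtap gene, after removal of cells under 300 genes, under 800 UMIs or over 20% mitochondrial UMIs and of called doublets, which left 11153 control and 11108 metformin cells in 29 clusters. Cluster 2 was hair matrix-like, led by Shh, Msx1, Dlx3 and Msx2, and held 38 control and 1341 metformin cells. Cluster 21, named inner root sheath-like from Krt71, Krt73, Krt25 and Tchh, also had Krt35 and S100a3 of the hair cortex among its leading genes and held 6 control and 285 metformin cells. With nearly all their cells from 1 library, these clusters cannot be told apart from a property of that library. Cluster 7 was hair follicle stem or outer root sheath-like and held 243 control and 663 metformin cells. The libraries shared 41 barcode sequences.

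In metformin, the hair matrix-like and inner root sheath-like cells together held 1515 of the 1882 Krtap UMIs of kept cells, 80.5% (exact binomial interval, 78.6 to 82.3). Few of the 1515 lay in the sub-clusters where the inner root sheath keratins Krt25 and Krt71 were highest. In the sub-clusters described below, sub-clusters 4 and 5 had 570 and 649, of which 516 were in 1 cell. Sub-clusters 6 and 9, with the most Krt25 and Krt71, had 42 and 23. Sub-cluster 5 also had some Krt25, at 133.5 CPM, and Tchh, at 180.5 CPM. Krtap UMIs were not counted by whether a single cell had these genes. In control, the 44 such cells held 5 of 368 UMIs, 1.36% (0.443 to 3.14). Outside these cells the summed levels had overlapping intervals, at 5.44 CPM (4.90 to 6.03) in control and 5.51 (4.96 to 6.10) in metformin. The classes in these sums differed between the libraries. Stem or outer root sheath-like cells were at 165.7 CPM in control and 38.35 in metformin. Granular layer-like cells were at 2.83 and 20.15, with 44 of their 47 metformin UMIs in 1 cell. After each cell was thinned to 1500 UMIs, a Krtap UMI was found in 0.400% (0.286 to 0.545) of control and 1.26% (1.05 to 1.49) of metformin cells, and without thinning in 0.986% and 3.48%. As a background, 0 of 603 control and 0 of 658 metformin cells called T cell-like had a Krtap UMI after thinning, which allows shares of up to 0.4975% and 0.456% (3 counts), at median depths of 2325 and 2303 UMIs before thinning. For fibroblast-like cells the thinned shares were 0.0872% and 0.0735%, and in hair matrix-like or inner root sheath-like cells of metformin 6.33% (5.18 to 7.65).

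Krtap8-1 (ENSMUSG00000059632, chr16:89487379-89487952), which encodes a high glycine-tyrosine protein, had 0 UMIs in control and 1306 in metformin, in 211 barcodes. Its level of 14.1 CPM (13.4 to 14.9) was at least 336-fold above what 3 counts in control would give. A single barcode held 419 of these UMIs, and without it the bound was 229-fold. Of the 211 barcodes, that one included, 101 had 1 UMI, 65 had 2 to 4, 20 had 5 to 9 and 25 had 10 or more, and the second highest had 46. Cells of clusters 2 and 21 had 371 and 767 of its UMIs, and 170 of the 1626 cells in them (10.5%) were positive. Elsewhere in metformin it was rare, with 1 UMI in 748 T cell-like cells, 2 in 1552 of the fibroblast-like type, 4 in 663 stem or outer root sheath-like cells and 24 in 2 of 2552 basal epidermis-like cells, 23 of them in 1 cell. In the 44 control cells of the hair classes it was not found, which allows a share of up to 6.82% (3 counts) of such cells with a UMI.

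Clusters 2 and 21 were clustered again into 12 sub-clusters, a step added after the data were seen, and their metformin cells were compared. Most Krtap8-1 UMIs lay in sub-clusters 4 and 5, in the latter mainly in 1 cell. In sub-cluster 4, 84 of 141 cells (59.6%) had it, at 475 CPM (433 to 520), with at most 46 in 1 cell. These cells were led by Csta1, Soat1 and Foxq1, the gene altered in the satin mouse, and were not given a name. They had 384 CPM of Hoxc13, 416 of Msx2 and 90.2 of Prdm1, but no UMI of the hair keratin Krt31. In sub-cluster 5, which was hair cortex-like with Krt35 at 2872 and S100a3 at 1610 CPM, 12 of 115 cells (10.4%) had Krtap8-1. Its level there, 491 CPM, fell to 89.7 without the single barcode with 419. That barcode also held 134 of the 160 Krt31 UMIs of sub-cluster 5, so the cortex-like name rests mainly on Krt35 and S100a3. Sub-cluster 10, led by histone genes, had it in 32 of 90 cells (35.6%) at 79.2 CPM (63.1 to 98.2), and in sub-cluster 6, the inner root sheath-like cells with Krt71 at 5879 CPM, it was found in 2 of 107 cells.

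**Figure D2:**
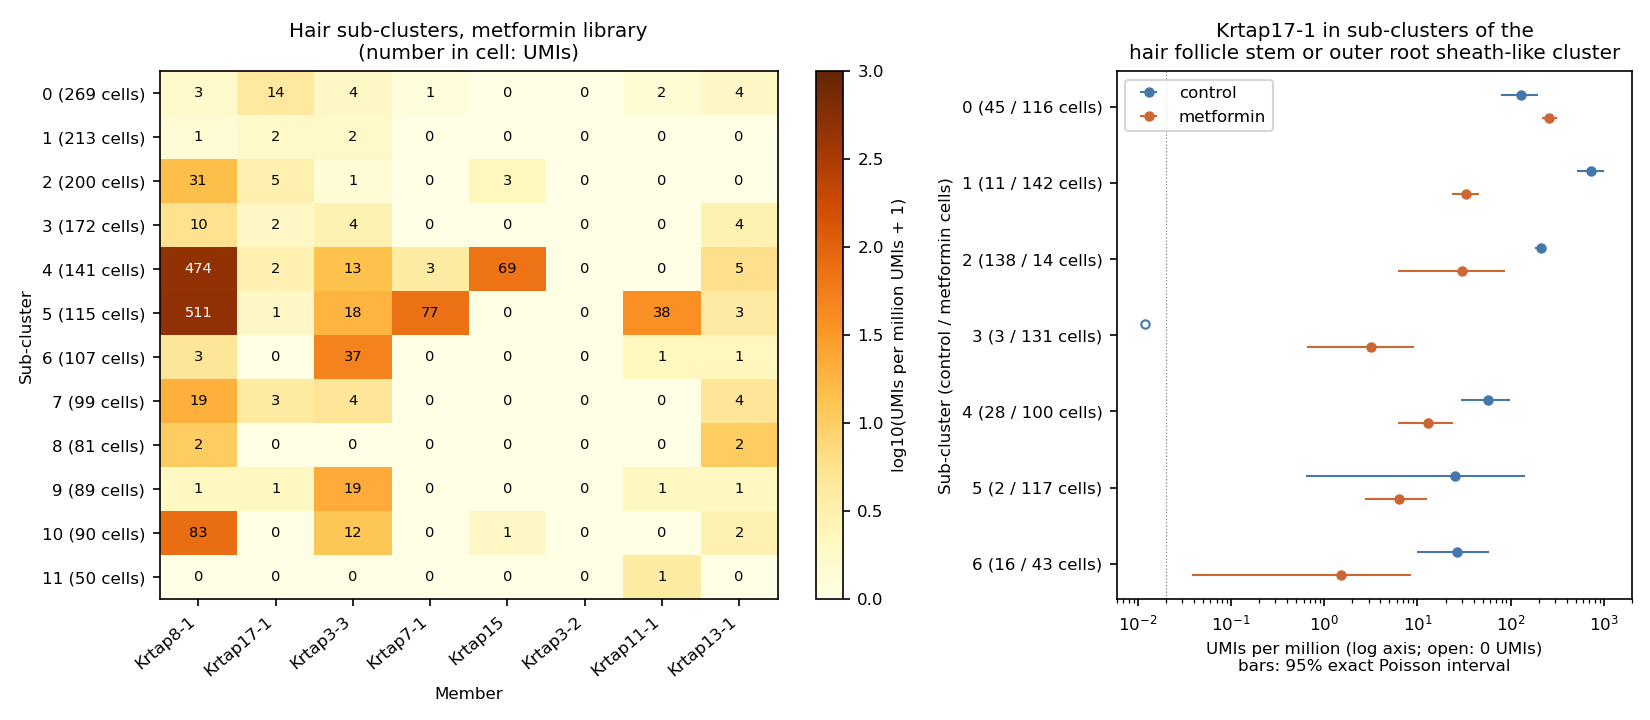
Left, the 8 leading members in the 12 sub-clusters of hair matrix-like and inner root sheath-like cells of metformin, coloured by log10(CPM + 1) with the UMIs printed; right, Krtap17-1 in CPM (log axis, 95% exact Poisson intervals, open point for 0) in 7 sub-clusters of the hair follicle stem or outer root sheath-like cluster in both libraries. Krtap15 is high in sub-cluster 4 with 69 UMIs, Krtap7-1 and Krtap11-1 in sub-cluster 5 with 77 and 38, and Krtap3-3 in sub-cluster 6 with 37.

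Krtap15 (ENSMUSG00000022931), on chromosome 16, was at 0 UMIs in the control library and at 83 in the metformin library, at least 21.4-fold above 3 control counts. It followed sub-cluster 4, which had 69 of the 83 UMIs in 21 of 141 cells at 69.1 CPM (53.8 to 87.5). In sub-cluster 5 it had no UMI. Of the 31 barcodes with Krtap15, 24 (77.4%) also had Krtap8-1, from which it lies 658 kb away with 14 members in between. Krtap15 overlaps 4930553J12Rik on its own strand and Krtap14 on the other, and 78.5% of the 50-base stretches in the last 400 bases of its transcripts were found in no other gene, so its counts are less certain than those of the other leading members. Krtap14 had 0 UMIs in control and 6 in metformin.

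Krtap11-1 lay mostly in a few of the hair cortex-like cells instead, and Krtap7-1 rested on 1 of these. Krtap7-1 (ENSMUSG00000056706), a high glycine-tyrosine gene 19.8 kb from Krtap8-1, was likewise absent from control and had 89 UMIs in metformin, but 76 were in the same single barcode as the 419 Krtap8-1 UMIs. The bound of 22.9-fold over control was 3.35-fold without that barcode. Krtap11-1 (ENSMUSG00000091212), a high sulfur gene 82.2 kb from Krtap8-1, had 7 UMIs in 7 barcodes in control and 61 in 23 barcodes in metformin. The levels were 0.0981 and 0.661 CPM, with metformin 6.73-fold higher (3.08 to 17.4), or 4.42 without the barcode with the most. In control 5 of the 7 UMIs were in sebaceous gland-like cells, each in a different cell. In metformin, 38 of the 61 were in sub-cluster 5, in 6 of 115 cells, and none in sub-cluster 4. A single cell had 21 of the 38, and without it the level there fell from 36.5 to 16.6 CPM. The 5 cells with at least 3 UMIs of Krtap11-1 all had Krt35, Hoxc13 and S100a3, whereas of the 61 such cells for Krtap8-1 20 had Krt35, 51 Hoxc13 and 39 S100a3. Of the 5, 4 were in cluster 21, which had Krt35 and S100a3 among its leading genes.

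The barcode that held 516 Krtap UMIs belonged to sub-cluster 5. It had 15746 UMIs and 2760 genes, so Krtap transcripts made up 3.28% of its UMIs, from 3 members only: 419 of Krtap8-1, 76 of Krtap7-1 and 21 of Krtap11-1. It also had 134 UMIs of Krt31, 80 of Krt33a, 54 of Krt83 and 279 of S100a3, and none of the basal keratins Krt5 and Krt14. It alone gave 25.05% of the Krtap UMIs of metformin, and the next barcode had 46. In control the highest barcode had 30 UMIs, 7.71% of the total. Without the barcode with 516 UMIs, the ratio of Krtap CPM between metformin and control was 3.07 in place of 4.09 (3.67 to 4.57). Without Krtap17-1 it was 23.7.

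**Figure D3:**
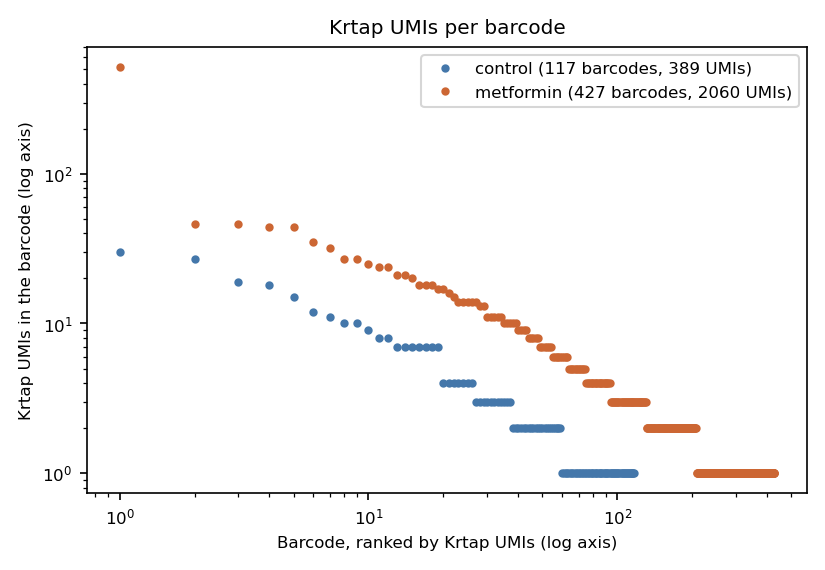
Krtap UMIs per barcode (log axis) against the rank of the barcode (log axis) in each library, over the 117 control and 427 metformin barcodes with at least 1. A single metformin barcode with 516 UMIs stands apart from the next, at 46, while the control barcodes decline from 30.

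Krtap3-3 (ENSMUSG00000069722, chr11:99550130-99550865), a high sulfur gene, had 3 UMIs in 3 barcodes in control and 176 in 90 barcodes in metformin. In CPM this was 0.0421 against 1.91, or 45.3-fold (15.3 to 222). Of the 90 barcodes 67 had 1 UMI, and the highest, at 17 UMIs each, were an epidermal pair: a basal epidermis-like cell of cluster 0 and a granular layer-like cell of cluster 12. Among the hair sub-clusters and unlike Krtap8-1, it was highest among the inner root sheath-like cells of sub-cluster 6, where 16 of 107 cells had it at 47.8 CPM (33.7 to 65.9). In sub-cluster 9, which also had Krt25 (982 CPM) and Krt71 (769), it was in 15 of 89 cells at 21.1 (12.7 to 32.97), with at most 2 UMIs in 1 cell. The cortex-like sub-cluster 5 had 17.3 (10.2 to 27.3), or 7.73 without its highest cell, and sub-cluster 4 had 13.03 (6.94 to 22.3), or 7.06 without it. Krtap13-1 (ENSMUSG00000056350), another high sulfur gene, had 2 UMIs in 1 control barcode and 31 in 25 metformin barcodes, giving a metformin over control ratio of 11.98 (3.05 to 103). It showed no such preference: its 26 UMIs in clusters 2 and 21 lay in 9 of the 12 sub-clusters, with at most 5 in any.

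Krtap17-1 (ENSMUSG00000078252, chr11:99993234-99993994), an ultra-high sulfur gene, was the main member of control and the only 1 of the 8 whose ratio had an interval wholly below 1. It had 330 UMIs in 84 control barcodes and 249 in 79 metformin barcodes, or 4.63 and 2.70 CPM, with metformin at 0.583 of control (0.492 to 0.689). It lay mostly in other cells than Krtap8-1. In control, 271 of the 330 UMIs were in the hair follicle stem or outer root sheath-like cluster, where 62 of 243 cells had it (25.5%, 20.2 to 31.5). In metformin, 188 of 249 were there, in 51 of 663 cells (7.69%, 5.78 to 9.99). Thinned to 1500 UMIs, 12.02% (8.14 to 16.9) of these cells were positive in control and 3.10% (1.90 to 4.74) in metformin. Hair matrix-like and inner root sheath-like cells of metformin had 30 UMIs in 1626 cells. The highest barcode held 30 UMIs in control and 35 in metformin, and 35 of 84 and 42 of 79 positive barcodes had 1. Only 4 of the 79 metformin barcodes with Krtap17-1 also had Krtap8-1.

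Within the stem or outer root sheath-like cluster the level was 165 CPM (146 to 186) for control and 35.2 CPM (30.3 to 40.6) for metformin, which gave a ratio of 0.213 (0.176 to 0.258). Of its 5 sub-clusters with a ratio, 4 had intervals wholly below 1 and sub-cluster 0 had one above 1. These intervals cover counting error only, and several rest on few cells or UMIs. Sub-cluster 0, with Krt15, Cd34, Postn and Krt24 of the follicle bulge, had 20 UMIs in 45 control cells and 126 in 116 metformin cells. This is 127 (77.8 to 197) and 261 (217 to 310) CPM, a ratio of 2.045 (1.27 to 3.46). Its control level was 78.7 and its metformin level 190 without the highest cell of each. Sub-cluster 2, which had Gpha2 at 151 CPM in control and was given no name, held 138 control and 14 metformin cells, and had 195 and 3 UMIs, or 209 (181 to 241) and 29.8 (6.15 to 87.2) CPM. Sub-cluster 1 had the same bulge genes, with Krt15 at 7989, Cd34 at 179, Postn at 1530 and Krt24 at 358 CPM in control. In metformin these were at 5466, 93.0, 538 and 50.1 CPM. The higher Krtap17-1 level of metformin in sub-cluster 0 was therefore not shared by all cells with bulge genes. Sub-cluster 1 had a ratio of 0.0450 (0.0277 to 0.0730), with 37 UMIs of Krtap17-1 in each library, at 735 CPM in 11 control cells and 33.1 in 142 metformin cells. In control 27 of these 37 were in a single cell, without which the level was 211. Sub-clusters 4 and 6 had ratios of 0.227 (0.0881 to 0.575) and 0.0567 (0.00123 to 0.468). The former had 12 control and 10 metformin UMIs, and the latter 6 and 1. The cells of the libraries thus fell differently over the sub-clusters, with 138 of 243 control and 14 of 663 metformin cells in sub-cluster 2. Such sub-clusters cannot be told apart from a property of the library. The part of this split in the lower level of metformin was not tested. In the 30 control and 22 metformin cells with at least 3 UMIs of Krtap17-1, Vdr was found in 20 and 12 and Hoxc13 in 13 and 8, whereas no hair keratin of the list had as many as 10 UMIs.

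Krtap3-2 (ENSMUSG00000069721, chr11:99555823-99556853), a high sulfur gene whose end lies 4.96 kb from Krtap3-3, was found mainly in epidermal cells and in none of the hair matrix-like or inner root sheath-like cells. It had 36 UMIs in 14 control barcodes and 44 in 13 metformin barcodes, 0.505 (0.353 to 0.699) and 0.477 (0.346 to 0.640) CPM, so that the ratio of 0.944 (0.594 to 1.51) had an interval that held 1. In metformin, 27 of the 44 were in 1 barcode, and without it the ratio was 0.365. In control, granular layer-like cells (Lor, Flg) had 19 UMIs in 4 of 546 cells and suprabasal epidermis-like cells (Krt1, Krt10) had 10 in 4 of 663 cells. In metformin, a single granular layer-like cell had the 27 UMIs, beside 17 of Krtap3-3 and 2334 of Lor, and suprabasal cells had 2 UMIs in 429 cells. None of the 1626 hair matrix-like or inner root sheath-like cells of metformin had Krtap3-2, which allows a share of up to 0.1845% (3 counts) with a UMI, while 68 of them had Krtap3-3. No stem or outer root sheath-like cell, of 243 and 663, had it either.

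**Figure D4:**
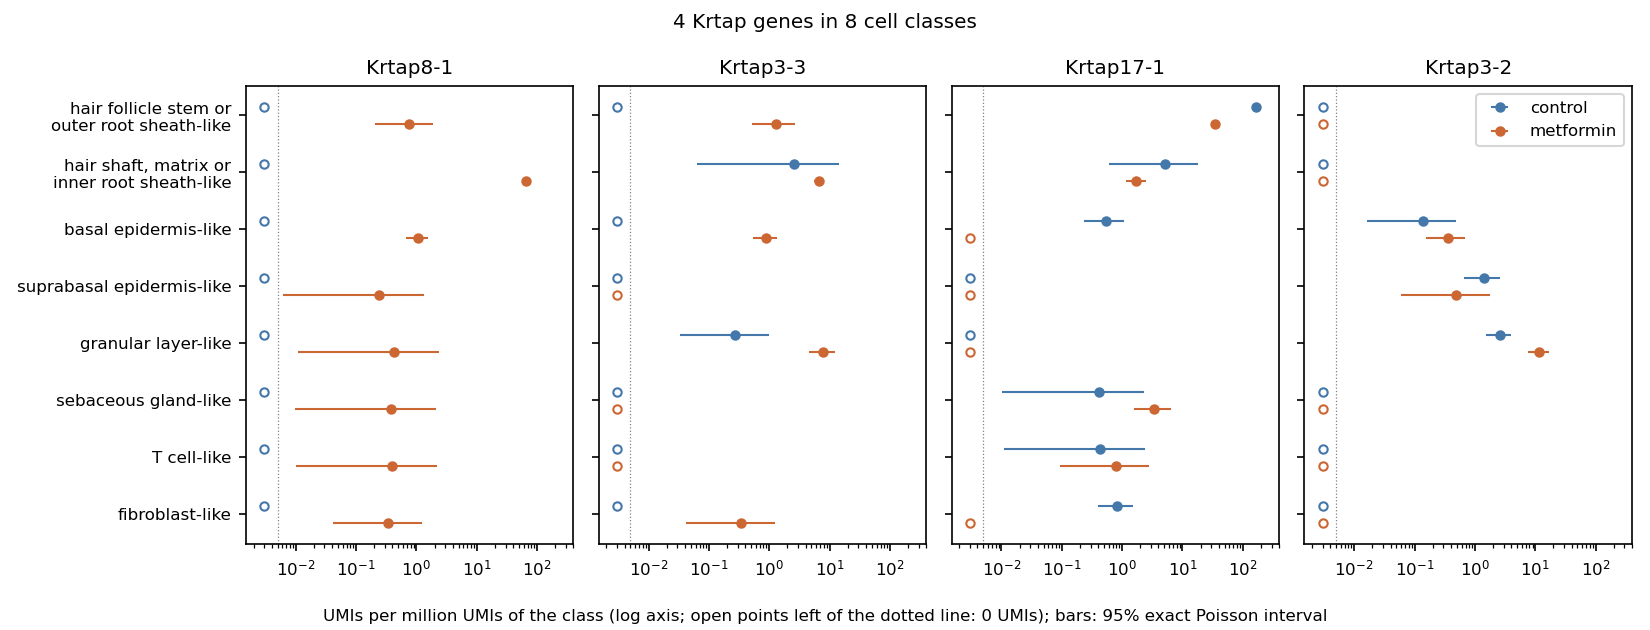
CPM of the class (log axis, 95% exact Poisson intervals, open points for 0 UMIs) of Krtap8-1, Krtap3-3, Krtap17-1 and Krtap3-2 in 8 cell classes of the control and metformin libraries. Krtap8-1 is at 65.6 in hair shaft, matrix or inner root sheath-like cells of metformin, Krtap17-1 at 165 in hair follicle stem or outer root sheath-like cells of control, and Krtap3-2 is above 0 only in the 3 epidermal classes.

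The other 15 detected members had 1 to 6 UMIs over both libraries and were too rare to place in a cell type. Among them Krtap10-10 had 4 UMIs in control and 2 in metformin, Krtap28-13 had 3 and 1, Krtap24-1 had 0 and 3, and Krtap4-16 had 2 UMIs in 1 control barcode. Krtap10-10, Krtap10-4 and Krtap12-1 lie within the gene Tspear, and Krtap10-10 and Krtap12-1 share its strand. Of the 34 members at 0, 28 had at least 90% of the 50-base stretches of their 3' end found in no other gene. The exceptions included Krtap4-13, with 3.70%, Krtap5-1, with 50.4%, and Krtap5-2, with 61.0%, whose reads can be lost to near-identical copies.

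A barcode with 1 Krtap UMI can show only 1 member, and 58 of the 117 control and 220 of the 427 metformin barcodes were of this kind. Of the barcodes with at least 2 Krtap UMIs, 1 of 59 in control and 59 of 207 (28.5%) in metformin had at least 2 members, which in metformin were 44 with 2 members, 14 with 3 and 1 with 4. Of the 90 metformin barcodes with Krtap3-3, 11 (12.2%) also had Krtap8-1, and 5 (5.56%) had Krtap13-1. Of the 10 barcodes with Krtap7-1, 7 had Krtap8-1 and 3 had Krtap11-1. Barcodes were not thinned for these shares, and those with Krtap8-1 had a median of 8992 UMIs and those with Krtap3-3 a median of 10131.

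Part of the hair shaft genes that work with these proteins showed a like split between the libraries. Of 32 listed genes, 24 had at least 20 UMIs in both libraries together, 13 were at least 4-fold higher in metformin (1.71% of all genes) and 1 was 4-fold lower (0.888% of all genes), with a median log2 ratio of 2.66 (0.05 over all genes). Of the 15 hair keratins, 8 were measured and 5 were 4-fold higher: Krt35 had 31 UMIs in the control library against 4879 in the other, 122-fold in CPM (85.6 to 179), and Krt31, Krt33a, Krt86 and Krt87 had ratios of 12.7, 7.05, 61.0 and 23.2. The barcode with 516 Krtap UMIs alone held 134 of the 181 metformin UMIs of Krt31, 80 of the 146 of Krt33a and 55 of the 90 of Krt87. The ratios of these 3 thus rest largely on 1 cell, and they were not computed without it. Krt32, Krt36 and Krt83 had ratios of 1.86, 3.57 and 1.54. Of the 8 regulators, Hoxc13, Lef1, Msx1, Msx2 and Dlx3 were 5.67-fold to 14.3-fold higher, whereas Foxn1, Prdm1 and Vdr had ratios of 0.730, 0.615 and 1.18. Of the 9 crosslinking and adhesion genes, 8 were measured, of which 3 were 4-fold higher and 1 was 4-fold lower. S100a3, a calcium-binding protein of the hair shaft, had a ratio of 15.96 and Padi3, which converts arginine to citrulline, one of 43.6. Dsg4, a desmosomal cadherin of the shaft, had 0 and 52 UMIs. Tgm1, the transglutaminase of the epidermal barrier, was lower in metformin, at 0.229 of control (0.205 to 0.254). The rest did not pass the 4-fold limit, with ratios of 0.407 (0.341 to 0.486) for Hephl1, 1.31 for Tgm3, 1.59 for Padi1 and 3.46 for Selenbp1. The list was chosen with earlier results of these data known.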

How the data were processed

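The authors deposited UMI counts per gene and barcode, which the matrix headers attribute to Cell Ranger 4.0.0 and the submitters' processing notes to genome build GRCm38 (mm10). The sources used here give no commands. The labels on extraction mention another species, whereas the gene identifiers are those of mouse. Total counts were 71345558 in control and 92341365 in metformin, and every barcode had at least 500 UMIs.

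The count of each Krtap gene was summed over all deposited barcodes and divided by the total, with exact Poisson intervals. Ratios have exact conditional binomial intervals and shares have exact (Clopper-Pearson) binomial intervals, all at 95%, while a level or share at 0 is given with the limit that 3 counts allow. A gene at 0 was set to 3 counts in ratios. The 4-fold limit was applied to genes with at least 20 UMIs in both libraries together.

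For cell types, cells passing the filter were called for doublets with Scrublet in scanpy 1.11.5 (expected rate 8%), which marked 401 control (3.47%) and 630 metformin barcodes (5.37%). Cells were clustered without the Krtap genes (2000 variable genes, 30 principal components, 20 neighbours sharing at least 3, Leiden in leidenalg 0.10.2 at resolution 1) and without correction between libraries. A cluster was named from the listed type with the highest mean log2 fold among types with at least 3 detected markers. It was left unnamed where another type had more markers among its 10 leading genes, or where no marker was among them and the mean log2 fold was under 1 or the cells were far shallower than their library. Sub-clusters of clusters 2 and 21 and of cluster 7 were made in the same way, with 1 difference. Variable genes were chosen by library for the main clusters but over the pooled cells for the sub-clusters. The rule on sub-cluster 3 of the hair cells gave the name dermal papilla, which its hair matrix genes go against, and it was left unnamed. Gene positions are from GENCODE M21. The members, lists and comparisons were chosen with earlier results of these data known. Members were described in full where they were among the 12 with the most UMIs, led a subfamily with at least 10 UMIs, were among the 3 highest in control, or were among the 3 highest or 3 lowest by their share in cluster 21; other genes come from the hair shaft and cell type lists. Gpha2, Csta1, Soat1, Foxq1, Krt24, the overlapping genes and the rarest or least unique members were named after their values were seen.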

Additional observations from a re-analysis of the deposited data

How the results depend on the processing

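Of 47 values recomputed under an alternative, 19 stayed within 1.5 times (counts) or within the 95% interval (ratios and shares), 28 moved and none reversed. No paired analysis was possible because each agent had 1 library. Without the metformin barcode with the most Krtap UMIs, chosen after the data were seen, the ratio of Krtap CPM was 3.07 in place of 4.09, the share in hair matrix-like or inner root sheath-like cells of metformin was 73.1% in place of 80.5%, and the shares were 57.4% for Krtap8, 16.1% for Krtap17, 14.3% for Krtap3, 0.842% for Krtap7 and 5.38% for Krtap15. Without Krtap17-1, also chosen later, the ratio was 23.7. Without the 10 barcodes with the most, Krtap8 had 54.4%, Krtap17 17.6%, Krtap3 14.5%, Krtap7 0.903%, Krtap15 6.73%, Krtap11 1.81% and Krtap13 2.46%. As means over the 39 barcodes with at least 10 Krtap UMIs, Krtap7 had 1.27%, Krtap15 6.67%, Krtap11 1.47% and Krtap13 0.0557%. With at least 3 UMIs per gene, 6 members counted as detected in control and 10 in metformin, in place of 10 and 20. The share of cells with a Krtap UMI was 0.758% in control and 2.17% in metformin when thinned to 3000 UMIs, and 0.986% and 3.48% without thinning, which follows from depth. The cap of 3000 genes and 8% mitochondrial UMIs gave shares of Krtap UMIs in the hair classes of 0.429% in control and 85.8% in metformin, and keeping doublets gave 76.4% in metformin; the cause was not tested. The 6 members higher in metformin were 6 at a 2-fold limit, 5 at a minimum of 50 UMIs and 5 without the top barcode. Depth limits the 34 members at 0 and the hair classes of control, which held 44 cells.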

Other observations

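Some Krtap UMIs lay in cells of another kind. A basal epidermis-like cell of metformin in cluster 0 had 23 UMIs of Krtap8-1, 7 of Krtap11-1 and 2 of Krtap7-1. It also had 150 UMIs of Krt35 and 14 of S100a3 beside 21 of Krt5 and 36 of Krt14, with 18024 UMIs in all, and was not called a doublet. The barcodes called doublets held 163 Krtap UMIs in metformin and 21 in control.

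Of the hair keratins, Krt83 was found outside the hair cells. T cell-like cells had 72 UMIs in 682 cells of control and 69 in 748 of metformin, 31.3 (24.5 to 39.5) and 27.1 (21.1 to 34.3) CPM. Hair matrix-like or inner root sheath-like cells of metformin had 72 in 1626 cells, of which 54 were in the barcode with 516 Krtap UMIs. Krt32 was likewise found in basal epidermis-like cells, with 179 of 367 UMIs in control and 501 of 882 in metformin, 12.2 and 22.1 CPM, beside 3.86 in the hair matrix-like or inner root sheath-like cells of metformin.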
